A study of Mus musculus with 6 samples.

Results

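The 26S proteasome is built from constitutive subunits whose transcripts are considered here as 1 set. It held 32 genes chosen by name: Psma1 to Psma7 and Psmb1 to Psmb7 of the 20S core, the ATPases Psmc1 to Psmc6, and 12 further subunits of the 19S cap (Psmd1, Psmd2, Psmd3, Psmd4, Psmd6, Psmd7, Psmd8, Psmd11, Psmd12, Psmd13, Psmd14 and Adrm1). The 32 genes were found among 45777 genes of the count table, and all 32 passed the filter on low counts that left 16188 genes for testing. The samples were tibialis anterior (TA) muscle, a leg muscle of mainly fast fibers, from 6 male C57BL/6J mice labelled 24 months old. Animals in the first group (vehicle, n = 3) received the solvent of DMSO and Tween 80. Those in the second group (BML-260, n = 3) received 5 mg/kg of BML-260, a small-molecule inhibitor of the dual specificity phosphatase DUSP22, by daily intraperitoneal injection for 1 month. All mice were aged and of wild-type strain, so no young or untreated muscle served as a reference, and each library was 1 mouse.

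The proteasome degrades proteins that have been tagged with ubiquitin. Its 20S core is a barrel of stacked rings, in which the alpha subunits form the gate and the beta subunits Psmb5, Psmb6 and Psmb7 carry the proteolytic sites. The 19S cap binds the ubiquitin chain, removes it, unfolds the substrate with a ring of ATPases and feeds it into the core. In skeletal muscle this system removes myofibrillar proteins, and subunit transcripts are known to be raised in several forms of muscle atrophy. The question addressed by the comparison was whether treatment of aged mice with BML-260 was accompanied by a difference in these transcripts.

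Libraries held 39522890 to 56998875 counts, and a subunit gene held 1313 to 23639 counts in a library, which puts the counting error of a subunit at 2.76% or less. Markers of muscle fibers were high in every library, at a summed 136311 to 216225 CPM (counts scaled to library size), of which the titin gene Ttn gave the largest share. Vehicle replicate 3 stood apart from the other libraries. Its correlation with them across genes, which are not independent replicates, was 0.955 to 0.963, against 0.986 to 0.994 among the other 5. It had the lowest CPM of 5 of the 7 fiber markers, among them the creatine kinase Ckm (7388 against 14009 to 19857 in the other 5) and the fast myosin Myh4 (18541 against 32083 to 46803). It held the highest sums of 3 tested adipocyte markers (16.7 CPM against 1.60 to 3.07) and 4 Schwann cell markers (82.1 against 19.8 to 32.4). Its sum of 4 endothelial markers was the lowest (114.0 against 117.8 to 141.0). Its sum of 5 fibroblast markers was within the range of the other 5 libraries (765.8 against 473.8 to 844.6). It also held the highest summed CPM of macrophage markers, at 153.8 against 67.6 to 68.9 in the other vehicle libraries and 40.5 to 48.7 with BML-260, and the highest of neutrophil markers, at 162 against 7.92 to 49.95 and 2.07 to 4.43. All 6 macrophage and 3 neutrophil markers were detected, and 4 lymphocyte markers were too low to test. At an unadjusted p under 0.05 and a change of 1.3-fold or more by edgeR's quasi-likelihood test, which 4.86% of all genes passed in the lower direction, 5 of the 6 and 3 of the 3 were called lower with BML-260, and none had an adjusted p under 0.05. All 5 fibroblast markers had estimates below 0, and 1, Col1a1, was called lower at this threshold. Without vehicle replicate 3, when 3.98% of all genes were called, Col1a1 was not called but Col3a1 was called lower. The log2 fold change of Col3a1 was then -0.39, against -0.13 with all libraries. Genes that denervated fibers express (Chrna1, Chrng, Myog, Runx1, Ncam1 and Myh3) summed to 56.1, 144.6 and 142.6 CPM in vehicle and 33.5, 26.8 and 38.7 with BML-260, and 5 of the 6 were called lower at the same threshold, with none at an adjusted p under 0.05. In bulk tissue fewer cells of a type and less RNA per cell cannot be told apart, and the part of these cells and fibers in the subunit values was not tested. Log2 fold changes are therefore also given without vehicle replicate 3.

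Transcripts of all 32 subunits were abundant. On the length-corrected TPM scale, which allows genes to be compared, the mean over 6 libraries ran from 48.6 for Psmd3 to 354 for Psmb7, a 7.28-fold range with a median of 124.6. Each subunit lay between the 91.5th and 98.5th percentile of the 16800 genes in the TPM tables. Psmb7, which carries the trypsin-like site of the core, had a TPM of 381, 312 and 407 in the vehicle libraries and 332, 378 and 312 in the BML-260 libraries. The next in order were the lid subunit Psmd8 with a mean TPM of 271, the beta subunit Psmb3 with 239 and the alpha subunit Psma7 with 212. These places rested on vehicle replicate 3. On average over the other 5 libraries Psmb3 was slightly above Psmd8, and the ATPase Psmc3 slightly above Psma7. At the lower end, the lid subunit Psmd3 had a TPM of 48.9, 41.8 and 63.4 in vehicle and 36.6, 48.3 and 52.5 with BML-260. Just above it was Adrm1, a ubiquitin receptor, with 52.2, 35.9 and 69.4 against 39.8, 46.7 and 54.7. The ranges of Psmd3 and Adrm1 overlapped over the 6 libraries. Those of Psmb7 and Psmd8 overlapped only through vehicle replicate 3, in which Psmd8 had 572 TPM. In the other 5 libraries Psmb7 was at 312 to 381 and Psmd8 at 166 to 265. Vehicle replicate 3 had the highest TPM of every one of the 32 subunits.

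**Figure D1:**
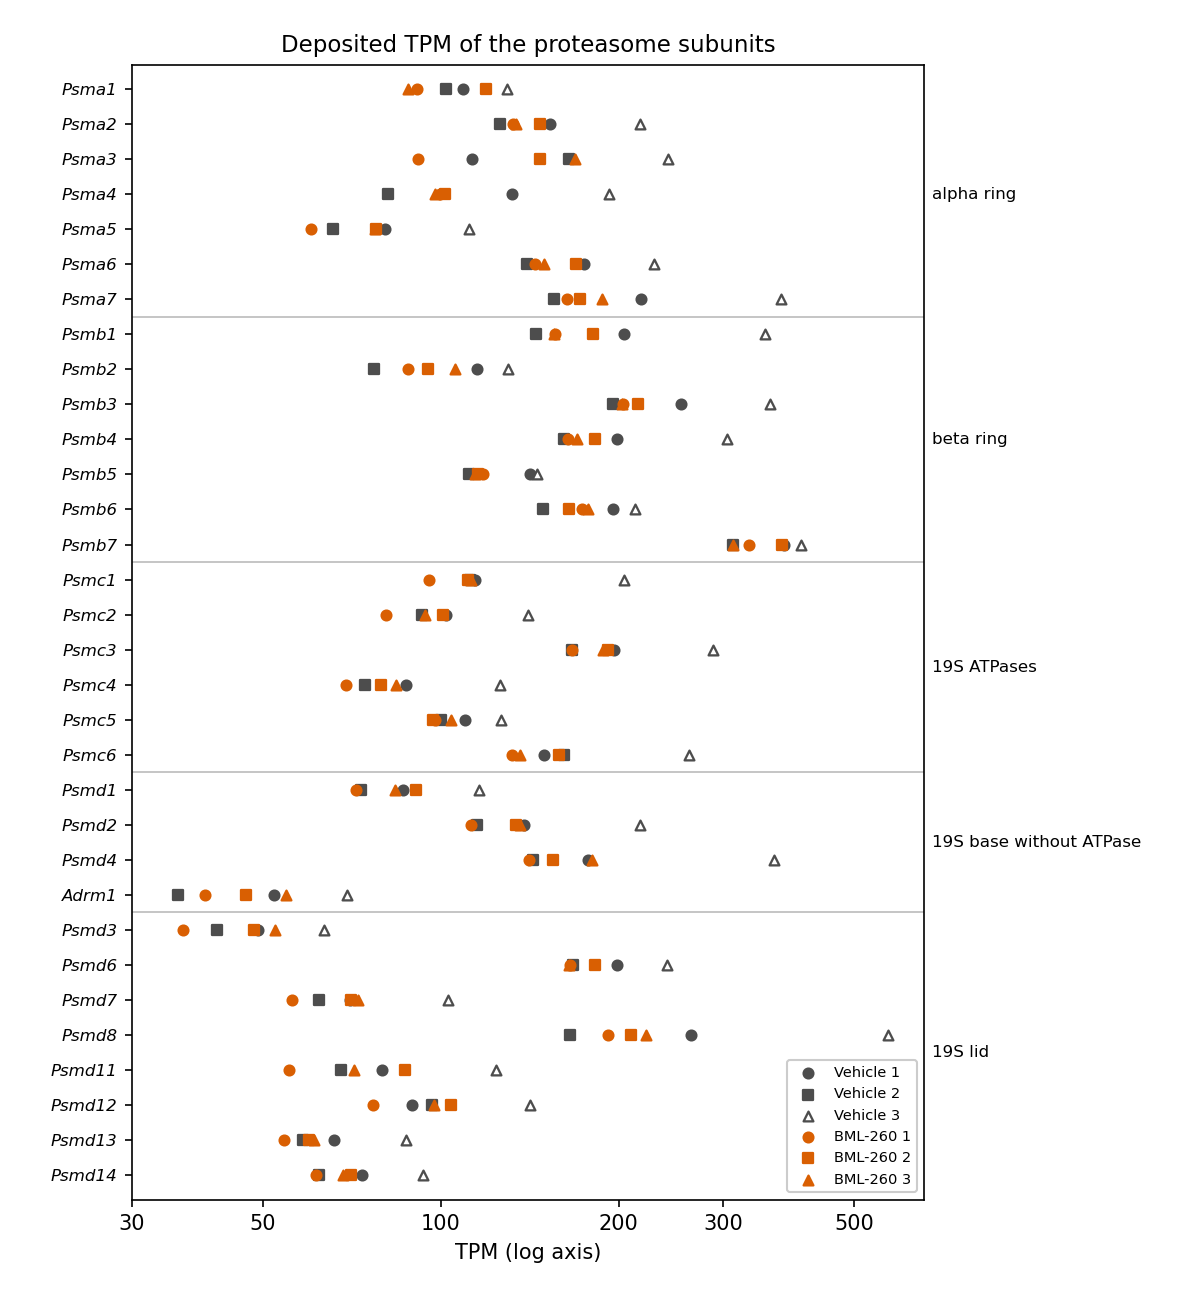
TPM of each subunit gene (log axis) in the 3 vehicle libraries (grey) and the 3 BML-260 libraries (orange), grouped by position in the complex, with 1 point per mouse. The subunits run from 35.9 to 572 TPM, and the open triangle of vehicle replicate 3 is the rightmost point in all 32 rows.

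No subunit transcript was called different between BML-260 and vehicle. By edgeR's quasi-likelihood F-test, adjusted by the Benjamini-Hochberg method, 0 of the 32 had an adjusted p under 0.05, as was the case for 0.0% of the 16188 genes tested, and the smallest adjusted p was 0.788. At the second threshold, an unadjusted p under 0.05 and a change of 1.3-fold or more, 0 of the 32 were called, against a background of 5.75% of all genes, 4.86% lower and 0.896% higher. An unadjusted p under 0.05 alone was reached by 0 subunits and by 5.97% of all genes, and DESeq2 and limma voom with sample weights called 0 subunits as well, against 6.31% and 5.5% of all genes. At an adjusted p under 0.05 DESeq2 called 95 genes (0.587%) and limma voom 1 (0.00618%), none of them a subunit. The estimates were small and mostly of 1 sign. They were below 0 for 28 subunits and above 0 for 4 (Psmb2, Psmb6, Psmb7 and Psmd1), with a median log2 fold change of -0.083 beside -0.0039 for all genes, and ran from -0.43 for Psmd8 to 0.051 for Psmb6. Because the 32 values come from the same 6 mice, the count of signs is a description and not a test. Leaving out vehicle replicate 3 gave a median of -0.066, a range of -0.15 to 0.054 and estimates below 0 for 30 of the 32. The split of signs and the median also moved with other libraries. Omission of vehicle replicate 1 gave 21 below 0 and 11 above with a median of -0.064, and omission of vehicle replicate 2 gave a median of -0.14. Leaving out vehicle replicate 2 gave 4 subunits called lower at the 1.3-fold threshold, when 7.22% of all genes were called, and none at an adjusted p under 0.05. These 4 were Psmd8, Psma4, Psma7 and Psmb1, with log2 fold changes of -0.69, -0.43, -0.48 and -0.46.

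**Figure D2:**
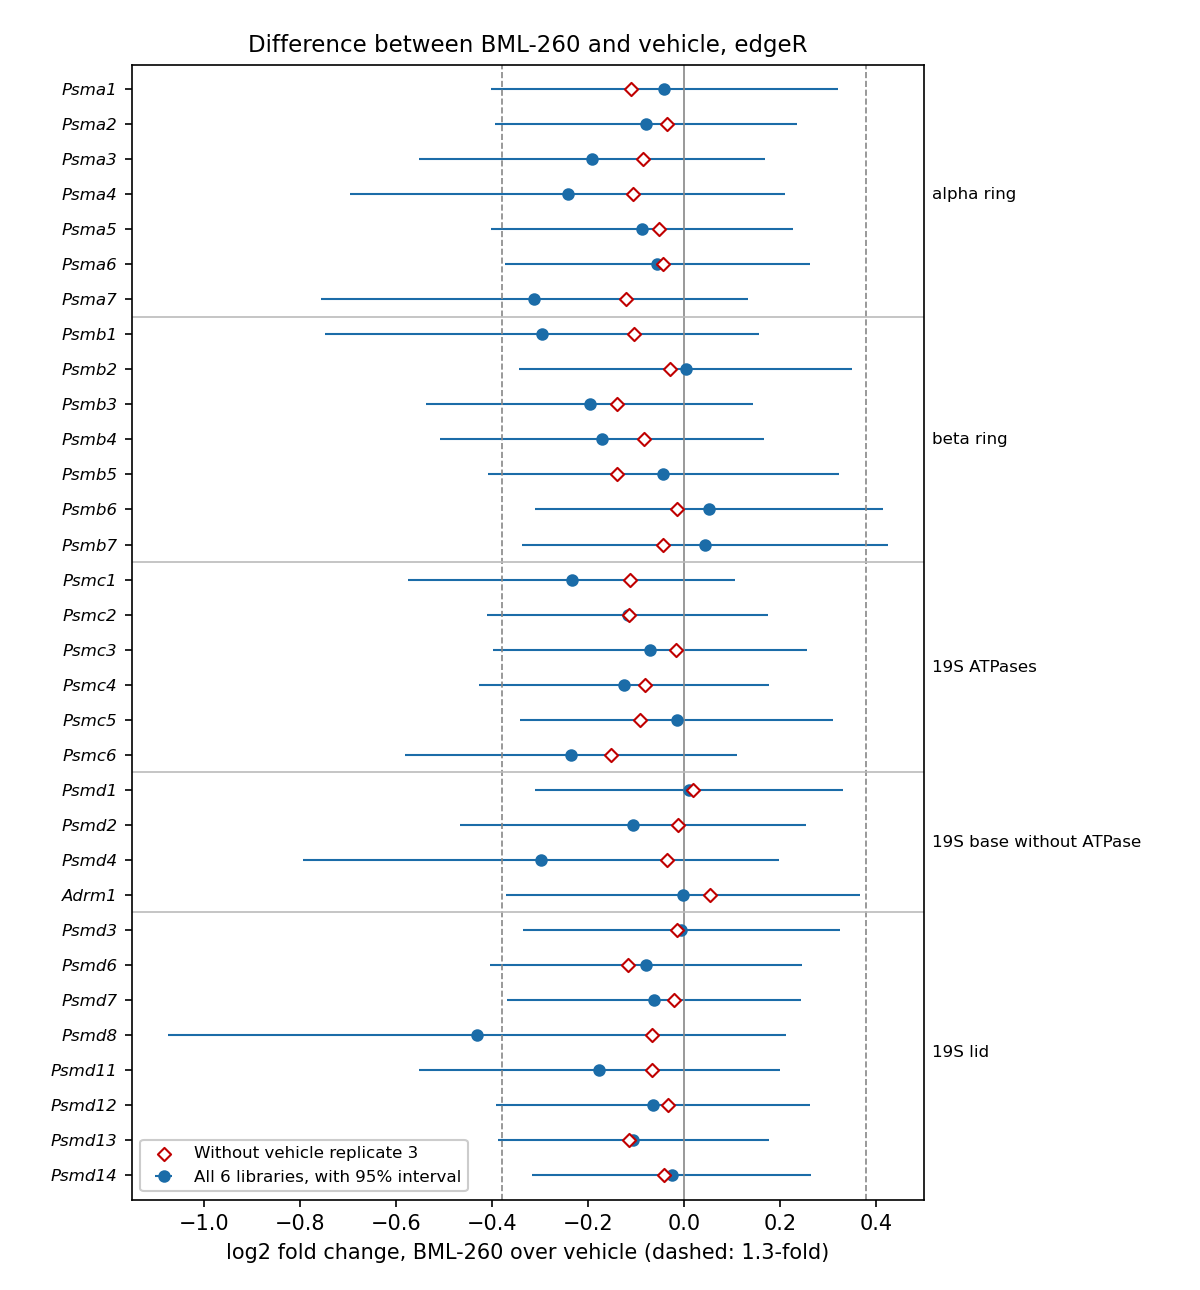
log2 fold change of each subunit gene, BML-260 over vehicle, from edgeR on all 6 libraries (filled circles with 95% intervals) and without vehicle replicate 3 (open diamonds). Dashed lines mark a 1.3-fold change. All 32 intervals cross 0, and the estimates farthest to the left, led by Psmd8 at -0.43, move toward 0 when that library is left out.

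The precision differed from that of a typical gene, in a comparison that was not matched for abundance. All 32 subunits lay above the 90th percentile in TPM, whereas the genes tested also include scarce ones. The 95% interval of the fold change lay within 1.3-fold in either direction for 8 of the 32 subunits (25.0%, against 5.7% of all genes), within 1.5-fold for 27 (84.4%, against 32.1%) and within 2-fold for 31 (96.9%, against 63.5%). A 2-fold lower level lay inside the interval of Psmd8 only. The spread was wider among vehicle mice. The median coefficient of variation in CPM, scaled by the trimmed mean of M-values (TMM), was 11.5% over the vehicle libraries and 6.32% over the BML-260 libraries, beside 21.2% and 12.8% for all genes. The vehicle SD was the larger for 27 subunits (84.4%, against 71.4% of all genes). Vehicle replicate 3 had the highest CPM of 16 subunits (50%, against 31.2%) and the lowest of 4 (12.5%, against 32.6%). Those 4 were the catalytic subunits Psmb5, Psmb6 and Psmb7 and the ATPase Psmc5.

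**Figure D3:**
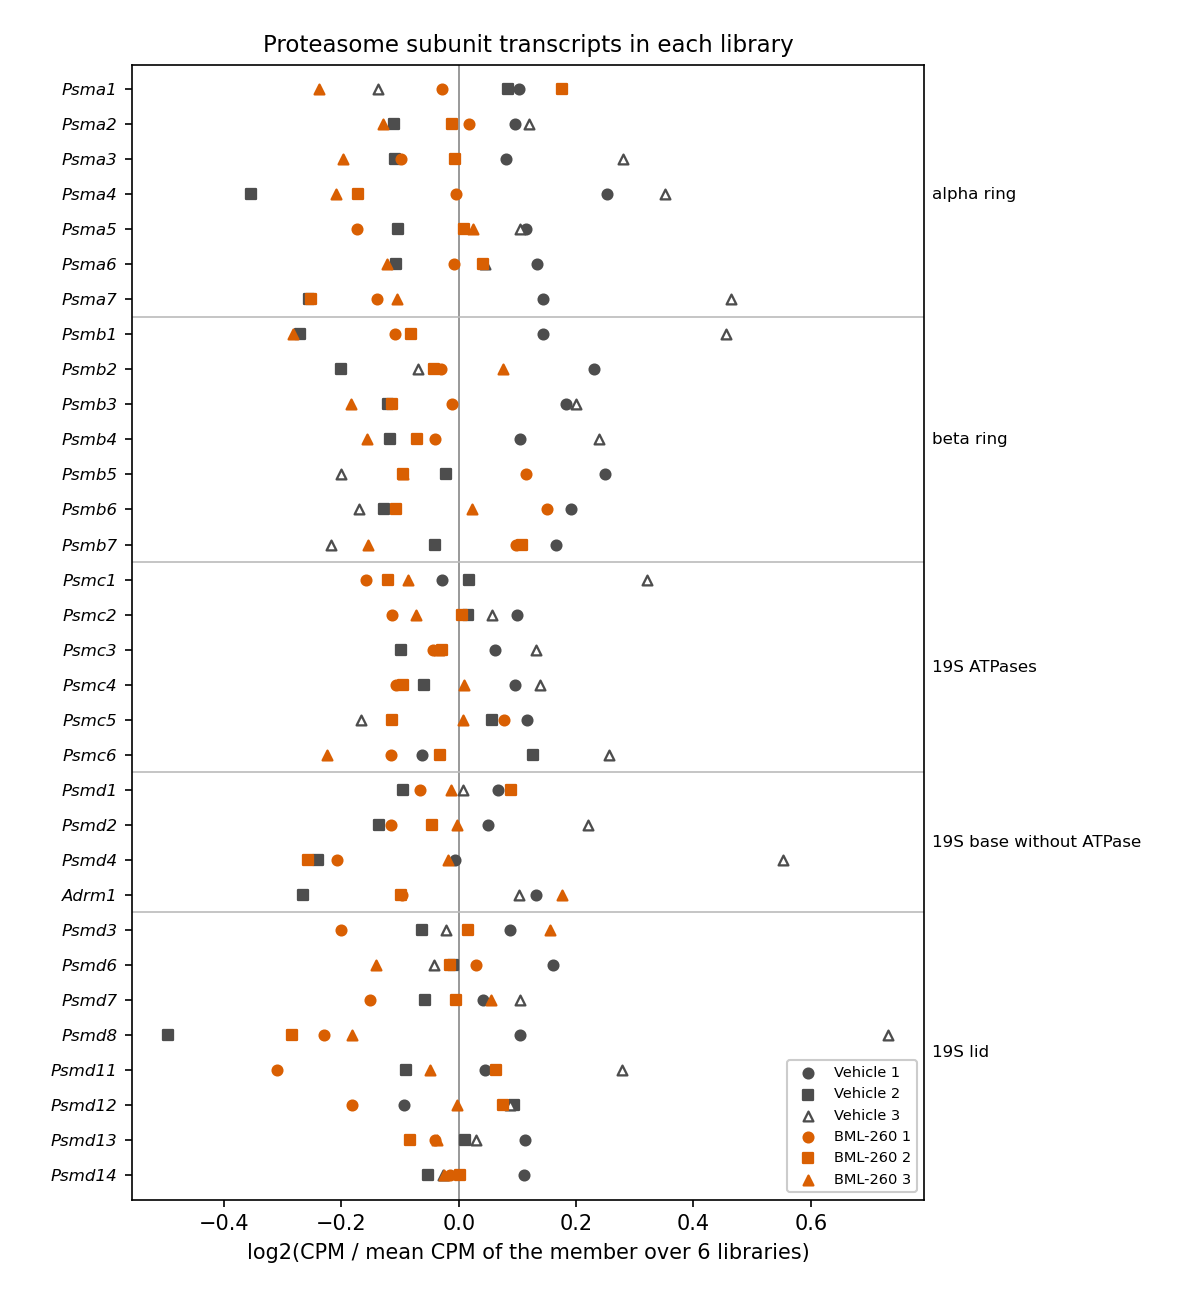
TMM-normalized CPM of each subunit gene in each library, as log2 of the ratio to that gene's mean over the 6 libraries. Grey marks vehicle, orange marks BML-260, and the open triangle is vehicle replicate 3. It lies at the far right for Psma7, Psmb1, Psmd4 and Psmd8 and at the far left for Psmb5, Psmb6 and Psmb7.

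All 7 alpha ring transcripts had estimates below 0 and none was called. Their median log2 fold change was -0.087, and -0.085 without vehicle replicate 3. Psma7, which had the smallest p of the 32, had a CPM of 127, 96.4 and 159 in the vehicle libraries and 105, 96.6 and 107 in the BML-260 libraries. The vehicle values of Psma7 spanned the BML-260 values, with vehicle replicate 3 highest and vehicle replicate 2 lowest of all 6. Its log2 fold change was -0.31 (SE 0.19) with an adjusted p of 0.788 by edgeR's quasi-likelihood test. Without vehicle replicate 3 the log2 fold change of Psma7 was -0.12. Psma4 had a similar pattern, with a CPM of 91.2, 59.9 and 97.8 in vehicle and 76.4, 68.0 and 66.3 with BML-260, so that the vehicle mice held both the lowest and the highest values. The log2 fold change of Psma4 was -0.24, and -0.11 without vehicle replicate 3. Psma1 differed from its neighbours in the ring in that vehicle replicate 3 had a lower CPM than both other vehicle libraries, with 83.5, 82.4 and 70.6 against 76.2, 87.8 and 65.9 with BML-260, and its log2 fold change went from -0.040 to -0.11 without that library. The remaining members, Psma2, Psma3, Psma5 and Psma6, had log2 fold changes of -0.079, -0.19, -0.087 and -0.055, and their groups overlapped. They were -0.034, -0.085, -0.052 and -0.044 without vehicle replicate 3.

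In the beta ring 4 transcripts had estimates below 0 and 3 above, none was called, and the median log2 fold change was -0.043. All 7 estimates were below 0 when vehicle replicate 3 was left out, with a median of -0.084. Over the 6 omissions of 1 library it ran from -0.12 without BML-260 replicate 1 to 0.088 without vehicle replicate 1, the omission that turned its sign. In vehicle replicate 3 the 3 catalytic subunits were at their lowest, and of the 4 without a proteolytic site Psmb1, Psmb3 and Psmb4 were at their highest and Psmb2 was not (45.8 CPM, against 41.8 to 56.4 in the other 5 libraries). Psmb5, the chymotrypsin-like subunit, had a CPM of 75.2, 62.4 and 55.1 in vehicle and 68.5, 59.2 and 59.2 with BML-260 (log2 fold change -0.043, SE 0.16). Psmb6, the caspase-like subunit, had 123, 98.9 and 96.0 against 119.9, 100.2 and 109.6 (log2 fold change 0.051, SE 0.16). Psmb7 had 222, 193 and 170.4 against 212, 213 and 178 (log2 fold change 0.044, SE 0.17). For all 3, vehicle replicate 1 was the highest of the 6 libraries, vehicle replicate 3 the lowest, and the BML-260 values lay in between. Without vehicle replicate 3 their log2 fold changes were -0.14, -0.013 and -0.043, so the estimates of Psmb6 and Psmb7 changed sign, as they also did on log2(TPM + 1) and with scaling by library totals only, but not in TPM scaled by the median ratio. Psmb1 showed the opposite order, with a CPM of 129, 96.6 and 159.7 in vehicle and 108, 110.1 and 95.7 with BML-260, in which vehicle replicate 3 was the highest. Its log2 fold change was -0.29 (SE 0.20), and -0.10 without that library. Psmb2, Psmb3 and Psmb4 had log2 fold changes of 0.0035, -0.20 and -0.17, and -0.028, -0.14 and -0.084 without vehicle replicate 3. The summed TPM of Psmb5, Psmb6 and Psmb7 divided by that of Psmb1 to Psmb4 was 0.929, 0.986 and 0.665 in vehicle and 1.02, 0.977 and 0.954 with BML-260. Vehicle replicate 3 was the lowest of the 6 on this ratio, which does not depend on how libraries are scaled to each other, and the other vehicle libraries lay within or just below the BML-260 range. The same ratio on CPM was 1.02, 1.08 and 0.720 against 1.12, 1.06 and 1.05.

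Subunit genes are known to be induced together through antioxidant response elements bound by the factor NFE2L1, and promoters were therefore searched for its core, TGACNNNGC, on both strands. The windows ran from 250 bases before to 50 after the transcription start (RefSeq, GRCm38.p6), so their last part is the start of the first exon, and 26 of the 32 genes had one. The core was found in 5 of the 26 (19.2%), against 14% of the 27025 genes with a window and 16.8% of the 11928 of those that were tested here. The 5 were Psmb5, Psmb6, Psmc6, Adrm1 and Psmd12. The promoters of Psmb5 and Psmb6 are printed because they hold the core closest to the start, at 47 and 9 bases before it. The promoters printed were chosen after the values were seen. Capitals mark the core, and both read 5′ to 3′ in the direction of the gene. Psmb5 is at chr14:54617946-54618245 on the minus strand and Psmb6 at chr11:70525107-70525406 on the plus strand.
Psmb5: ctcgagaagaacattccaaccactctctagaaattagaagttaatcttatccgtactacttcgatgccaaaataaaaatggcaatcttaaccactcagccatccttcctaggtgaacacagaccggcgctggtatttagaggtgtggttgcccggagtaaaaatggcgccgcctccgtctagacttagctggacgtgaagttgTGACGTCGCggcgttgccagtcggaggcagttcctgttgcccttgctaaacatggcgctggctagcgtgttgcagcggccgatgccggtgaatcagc
Psmb6: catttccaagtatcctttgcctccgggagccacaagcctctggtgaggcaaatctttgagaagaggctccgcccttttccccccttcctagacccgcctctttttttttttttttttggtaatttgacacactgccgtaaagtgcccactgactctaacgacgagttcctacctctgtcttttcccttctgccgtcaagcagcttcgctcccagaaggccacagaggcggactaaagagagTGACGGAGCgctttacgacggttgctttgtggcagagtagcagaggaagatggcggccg
Of the other motifs searched on both strands, CCAAT was found in 11 of 26 subunit promoters (42.3%, against 42.3% of tested genes), GGGCGG in 16 (61.5%, against 63.8%), the palindromic core site of nuclear respiratory factor 1 in 1, Psma2 (3.85%, against 2.02%), and the forkhead core GTAAACA in 0 (against 3.32%). A match is a description of the sequence only, and the absence of these letters from a window says nothing about binding elsewhere.

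With all libraries the ATPase ring had the lowest median of the 5 groups of subunits, at -0.12, and -0.10 without vehicle replicate 3. All 6 ATPase transcripts had estimates below 0, none was called, and the groups did not overlap for Psmc1 and Psmc2. Psmc1 had a CPM of 105, 108 and 133 in vehicle and 95.7, 98.2 and 101 with BML-260, a log2 fold change of -0.23 (SE 0.15). Each BML-260 value of Psmc1 was below each vehicle value, and vehicle replicate 3 was the highest. Psmc2 had 91.8, 86.6 and 89.1 against 79.2, 86.0 and 81.4 (log2 fold change -0.12, SE 0.13), with the highest BML-260 mouse close under the lowest vehicle mouse. Over all 32 subunits the groups did not overlap for 3, each lower with BML-260, against 12.1% of all genes in either direction and 6.91% in the lower direction. The third, Psmd13, is a lid subunit. Psmc6 had a CPM of 144, 164 and 179 in vehicle and 138, 147 and 128 with BML-260 (log2 fold change -0.23, SE 0.15), and 1 BML-260 mouse lay above the lowest vehicle mouse. Adjusted p-values of Psmc1 and Psmc6 were both 0.788 by edgeR's quasi-likelihood F-test, adjusted by the Benjamini-Hochberg method. Without vehicle replicate 3 the log2 fold changes of Psmc1, Psmc2 and Psmc6 were -0.11, -0.11 and -0.15. Psmc3, Psmc4 and Psmc5 had log2 fold changes of -0.070, -0.12 and -0.015, and -0.016, -0.081 and -0.092 without vehicle replicate 3. Psmc5 was the ATPase with its lowest CPM in vehicle replicate 3, with 85.5, 82.0 and 70.2 against 83.2, 72.9 and 79.2.

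The base of the 19S cap also holds the scaffolds Psmd1 and Psmd2 and the ubiquitin receptors Psmd4 and Adrm1. None of the 4 was called, and their median log2 fold change was -0.054, with 3 of the 4 estimates below 0. Leaving out vehicle replicate 3 gave a median of 0.0038, with 2 of the 4 below 0, and over the 6 omissions it ran from -0.15 without vehicle replicate 2 to 0.0038 without vehicle replicate 3. The receptors differed in vehicle replicate 3. Psmd4 had a CPM of 143, 122 and 211 in vehicle and 125, 121 and 142 with BML-260. Vehicle replicate 3 was the highest by far, and the other vehicle libraries were at most slightly above the BML-260 range. The log2 fold change of Psmd4 was -0.30 (SE 0.22) with all libraries and -0.036 without vehicle replicate 3. Adrm1 had 47.5, 36.1 and 46.6 against 40.6, 40.5 and 49.1, with the lowest value in vehicle replicate 2 and the highest in BML-260 replicate 3, and a log2 fold change of -0.0013 (SE 0.16) that was 0.054 without vehicle replicate 3. The log2 fold change of Psmd1 was 0.010, and that of Psmd2 was -0.11. They were 0.019 and -0.011 without vehicle replicate 3.

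The lid, which houses the deubiquitinase Psmd14, had 8 members with estimates below 0, none called, and a median log2 fold change of -0.072, or -0.054 without vehicle replicate 3. Psmd8 had the largest estimate of the 32. Its CPM was 244, 161 and 377 in vehicle and 193, 186 and 200.1 with BML-260. The vehicle mice spanned a 2.34-fold range with the highest and the lowest value of all 6 libraries, while the BML-260 mice lay close together in between. Its coefficient of variation was 41.8% in vehicle and 3.55% with BML-260. The log2 fold change was -0.43 (SE 0.28, 95% interval -1.07 to 0.21, adjusted p = 0.788 by edgeR's quasi-likelihood test), and -0.066 without vehicle replicate 3. The promoter of Psmd8, on the minus strand at chr7:29180624-29180923 (RefSeq, GRCm38.p6), is printed because this gene had the largest estimate. It holds no TGACNNNGC on either strand and is therefore all in lower case.
Psmd8: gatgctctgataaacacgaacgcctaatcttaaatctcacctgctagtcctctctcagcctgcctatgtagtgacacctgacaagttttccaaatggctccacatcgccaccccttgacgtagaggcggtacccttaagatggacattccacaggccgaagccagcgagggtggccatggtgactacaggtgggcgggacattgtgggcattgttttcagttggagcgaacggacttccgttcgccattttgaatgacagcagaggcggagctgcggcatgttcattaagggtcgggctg
Psmd11, a lid subunit that the study also assayed in cultured muscle cells, had a CPM of 97.8, 89.1 and 115 in vehicle and 76.5, 99.1 and 91.7 with BML-260 (log2 fold change -0.18, SE 0.16, adjusted p = 0.804 by edgeR's quasi-likelihood test). Its groups overlapped, with the lowest value in BML-260 replicate 1 and the highest in vehicle replicate 3, without which the log2 fold change of Psmd11 was -0.067. Psmd14 was the steadiest over the BML-260 libraries after Psmc3, with 68.9, 61.6 and 62.6 in vehicle and 63.2, 63.9 and 62.7 with BML-260 and a log2 fold change of -0.025 (SE 0.13), or -0.042 without vehicle replicate 3. Psmd13 had 62.9, 58.6 and 59.3 against 56.6, 54.9 and 56.7 without overlap between the groups, a log2 fold change of -0.11 (SE 0.12) that was -0.11 without vehicle replicate 3. Psmd3 had 64.0, 57.7 and 59.3 against 52.4, 60.9 and 67.1 (log2 fold change -0.0052, and -0.015 without vehicle replicate 3), and the BML-260 mice held both the lowest and the highest value. Psmd6, Psmd7 and Psmd12 had log2 fold changes of -0.079, -0.062 and -0.065, and -0.12, -0.021 and -0.033 without that library.

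The size of the difference for the complex as a whole depended on the scale. The summed TPM of the 32 subunits was 4574, 3783 and 6757 in vehicle and 3723, 4262 and 4121 with BML-260, and vehicle replicate 3 was the highest. On TMM-normalized CPM the sums were 3724, 3239 and 3981 against 3315, 3369 and 3288. Here vehicle replicate 3 was again the highest, vehicle replicate 2 was the lowest of all 6, and the BML-260 sums lay in between. The shift was common to most genes. The median over all genes of the log2 ratio of vehicle replicate 3 to the mean of the other 5 libraries was 0.49 in TPM and -0.018 in TMM-normalized CPM, and over the 32 subunits it was 0.63 and 0.13. Tests on log2(TPM + 1) with limma gave estimates below 0 for all 32 subunits and a median of -0.23, when the median of all genes was -0.098. They called 0 of the 32 at the 1.3-fold threshold, against 3.22% of all genes. Leaving vehicle replicate 3 out of the TPM test gave a median of -0.042 with 25 of 32 below 0. The summed TPM of the 19S cap divided by that of the 20S core was 0.851, 0.904 and 0.978 in vehicle and 0.845, 0.881 and 0.927 with BML-260, so the groups overlapped in this ratio.

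**Figure D4:**
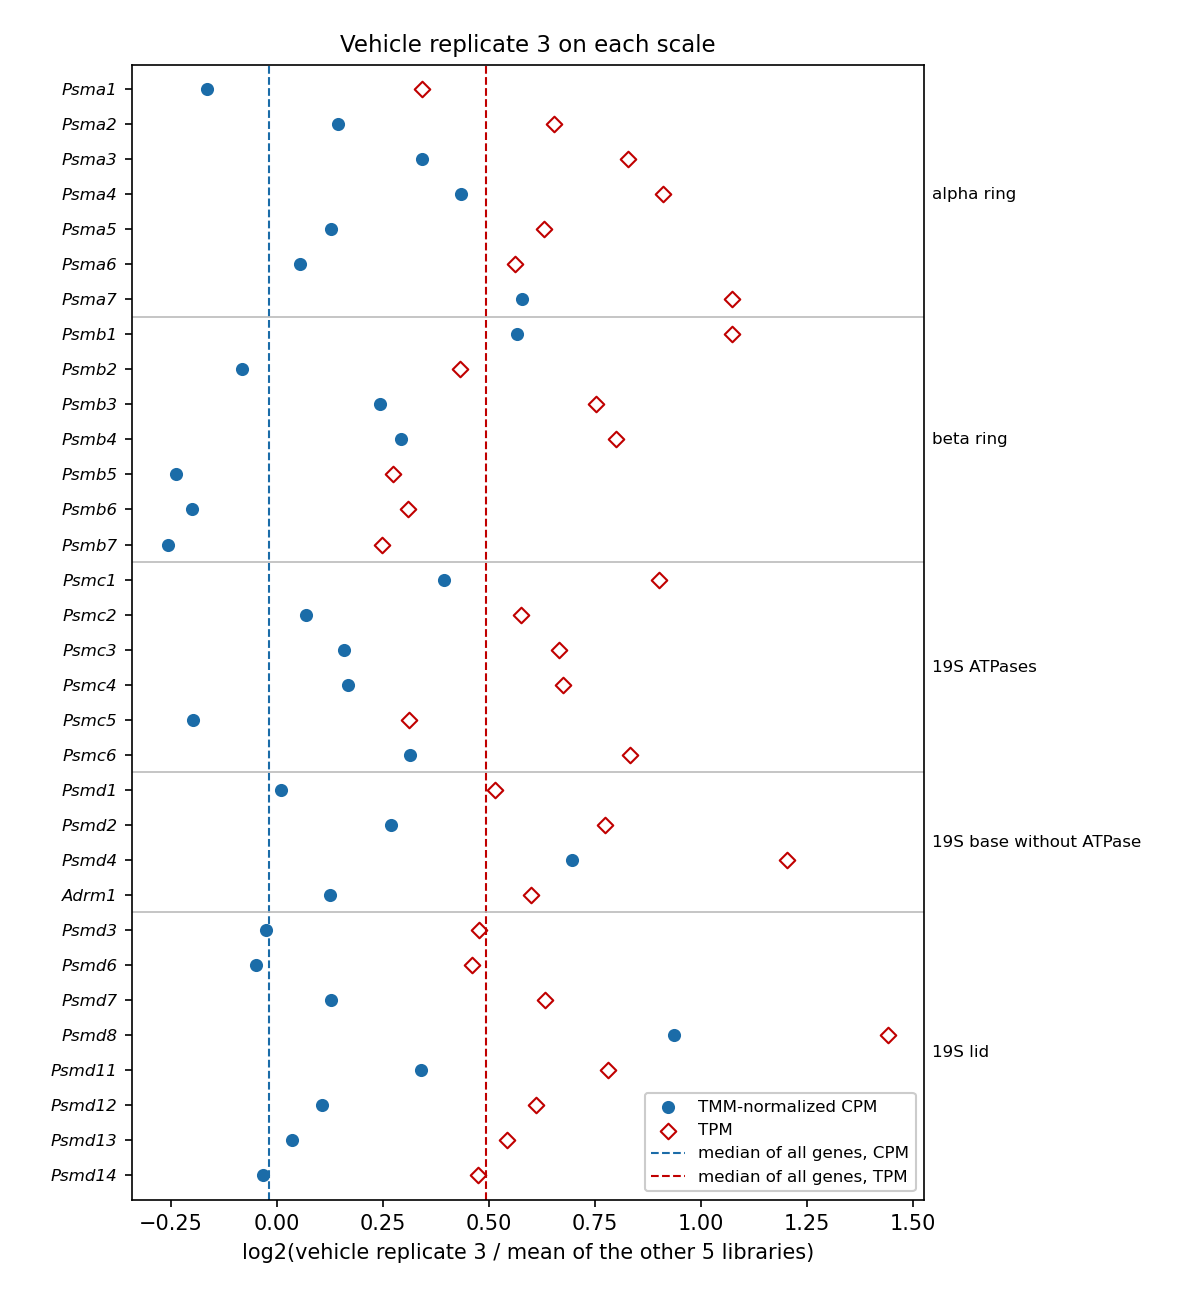
log2 ratio of vehicle replicate 3 to the mean of the other 5 libraries for each subunit gene, in TMM-normalized CPM (filled circles) and in TPM (open diamonds). Dashed lines give the median over all genes on each scale, -0.018 and 0.49. On either scale 23 of the 32 subunits lie to the right of that median, and Psmb5, Psmb6, Psmb7 and Psmc5 lie to the left of it.

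Other genes of the pathway were taken from 7 lists with 42 genes, of which 39 were tested. Of these, 21 had estimates below 0 and 18 above, and 2 were called lower and 0 higher at the 1.3-fold threshold, beside the 5.75% of all genes. The estimates were below 0 for 17 and above 0 for 22 without vehicle replicate 3. The groups did not overlap for 6 of the 39 (15.4%, against 12.1% of all genes), of which Psmb8, Pomp, Ngly1 and Rps27a were lower with BML-260 and Psme4 and Ecpas higher. Psmb8, an immunoproteasome subunit, had a CPM of 6.98, 5.09 and 7.48 in vehicle and 4.26, 3.86 and 4.59 with BML-260. Every BML-260 value was below every vehicle value. The log2 fold change of Psmb8 was -0.62 (SE 0.20, adjusted p = 0.733 by edgeR's quasi-likelihood test), and -0.51 without vehicle replicate 3. Psmb8 was no longer called in 2 of 19 alternatives, namely without BML-260 replicate 2 and in TPM without vehicle replicate 3. Rps27a, which encodes a fusion of ubiquitin with a ribosomal protein, had 209, 193 and 323 against 189.6, 158 and 151 (log2 fold change -0.54, adjusted p = 0.788 by edgeR's quasi-likelihood test). The groups of Rps27a did not overlap, but the call was lost in 9 of the 19 alternatives. These were the omission of vehicle replicate 3, when the log2 fold change was -0.27, that of BML-260 replicate 2 or 3, the replicate block, limma voom with sample weights and the 4 tests in TPM. All 5 genes listed for the transcription of subunits (Nfe2l1, Nfe2l2, Ngly1, Ddi2 and Akirin2) had estimates below 0 with a median of -0.22, and 0 were called. When vehicle replicate 3 was left out the median was -0.041 and 2 of the 5 were above 0, Nfe2l1 and Ddi2, the latter at 0.28 against -0.088 with all libraries. Nfe2l1, the factor named above, had a CPM of 403, 396 and 611 in vehicle and 379, 404 and 417 with BML-260. Its log2 fold change was -0.23 (SE 0.21) with all libraries and 0.0035 without vehicle replicate 3, the library with the highest value. Nfe2l2 had the lowest estimate in that list, -0.57, and -0.070 without that library.

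None of the assembly factors, activators or associated factors was called. Of the 8 assembly factors tested 6 had estimates above 0, and the 8 ran from Pomp at -0.22 to Psmg1 at 0.36 on the log2 scale, which were -0.24 and 0.22 without vehicle replicate 3. Pomp, which guides the beta ring into place, had 58.5, 55.2 and 53.6 CPM in vehicle and 51.7, 48.2 and 44.3 with BML-260, without overlap (log2 fold change -0.22, SE 0.13). Of the 5 activators and inhibitors 4 had estimates above 0. Psme4, an activator that caps the core in place of the 19S complex, had 425, 420.4 and 405 against 438, 514 and 436, also without overlap but in the higher direction (log2 fold change 0.15, SE 0.16, and 0.13 without vehicle replicate 3). The inhibitor Psmf1 had the lowest estimate, -0.045, but 0.12 without that library, when the activator Psme1 was lowest at -0.22 against 0.0024 with all libraries. Of the 12 associated factors 6 had estimates below 0 and 6 above, from the deubiquitinase Uchl5 at -0.25 to Ecpas at 0.25, which were -0.19 and 0.14 without vehicle replicate 3. Among ubiquitin genes and activating enzymes the highest was Uba6 at 0.28, and 0.056 without that library. The testis subunit Psma8 and the thymus subunit Psmb11 were too low to test, and 1 listed assembly factor was not analysed here.

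In the immunoproteasome, which is induced by interferon and is typical of immune cells, Psmb8, Psmb9 and Psmb10 take the places of Psmb5, Psmb6 and Psmb7. In TPM each amounted to a small part of its constitutive counterpart in this muscle. A library held 174 to 469 counts of Psmb8, 48 to 154 of Psmb9 and 210 to 367 of Psmb10. Their counting error was therefore larger than that of the constitutive subunits. Psmb8 was at 6.59%, 5.81% and 9.66% of Psmb5 in the vehicle libraries and 4.41%, 4.63% and 5.52% in the BML-260 libraries. Each BML-260 value was below each vehicle value, and vehicle replicate 3 was the highest. The mean log2 ratio differed by -0.57 between the groups. A two-sided exact permutation test gave p = 0.1, the smallest value that 3 against 3 mice can give, and 0.15 after Benjamini-Hochberg adjustment over the 3 pairs. Without vehicle replicate 3 the difference was -0.36 (exact permutation p = 0.2). Psmb10 was at 2.52%, 2.55% and 2.48% of Psmb7 in vehicle and 2.41%, 2.18% and 2.34% with BML-260, a log2 difference of -0.12 (exact permutation p = 0.1, adjusted 0.15). Psmb9 was at 2.63%, 1.91% and 2.83% of Psmb6 against 1.95%, 0.986% and 2.62%, which overlapped (log2 difference -0.50, exact permutation p = 0.4, adjusted 0.4). The sum of the macrophage markers differed in the same direction, with a CPM of 68.9, 67.6 and 154 in vehicle and 48.7, 40.5 and 44.4 with BML-260. Of the 6 markers 5 had estimates below 0, and Cd68 was at 0.0018, or 0.39 without vehicle replicate 3. The part of macrophages in the ratios was not tested.

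**Figure D5:**
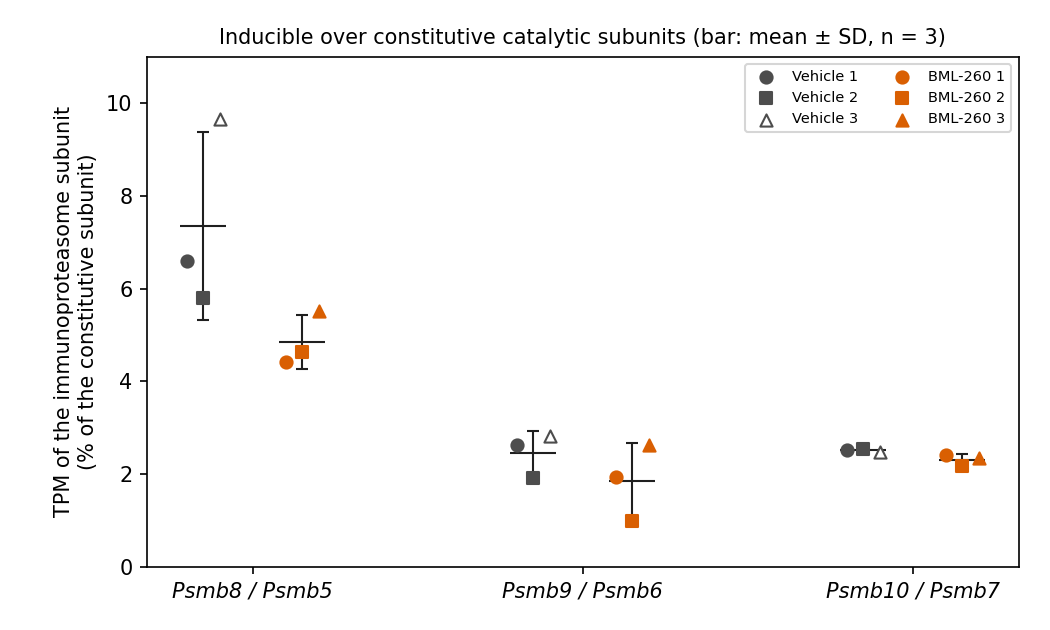
TPM of each immunoproteasome subunit as a percentage of its constitutive counterpart, in the 3 vehicle libraries (grey) and the 3 BML-260 libraries (orange), with 1 point per mouse and bars for the mean ± SD. For Psmb8 the vehicle mice lie between 5.81% and 9.66% and the BML-260 mice between 4.41% and 5.52%.

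Some subunit genes have close copies that could share reads. Transcripts of 9 of the 32 matched another annotated gene (GENCODE, mouse release M21) over at least 200 bases at 95% identity or more, in 17 pairs, mostly processed pseudogenes. The counts of the 15 copies with a row of their own, set against those of their parent gene, came to at most 7.30%, with a median of 0.284% over copies. The largest was Gm3375, a pseudogene of Psmb5. Counting it together with Psmb5 gave a CPM of 80.9, 67.3 and 58.4 in vehicle and 73.7, 63.0 and 64.6 with BML-260, in which vehicle replicate 3 was again the lowest. The next largest was Gm9774, a copy of Adrm1, whose counts came to 5.91% of the number counted for Adrm1 itself. Exons of 8 subunit genes overlap another gene, 7 of them on the opposite strand. Psmd13 overlaps Sirt3 and Psmb7 overlaps Nek6, by 329 and 253 bases, and how the counting treated strand is not given in the sources used here.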

How the data were processed

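RNA of TA muscle from 3 vehicle and 3 BML-260 mice was sequenced from stranded total RNA libraries. Reads were, per the labels' processing notes, handled with StringTie 2.1.3b, Bowtie2 2.3.4.1, HISAT2 2.1.0 and Trimmomatic 0.38, with mm10 as the genome build, and the annotation and the treatment of strand and multiply mapped reads are not given in the sources used here. The authors deposited 1 table of raw read counts per gene and 6 tables of TPM values. TPM were deposited for 16800 genes, correct for transcript length and have nearly the same total in each library, so a shift in a few abundant genes moves all others.

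The comparison of BML-260 with vehicle used edgeR 4.0.16 (R 4.3.3) on the deposited counts: filterByExpr, TMM scaling and the quasi-likelihood F-test over 16188 genes, which held 99.9% of all counts, with Benjamini-Hochberg adjustment over all of them. A gene was called at an adjusted p under 0.05 or, as a second threshold, at an unadjusted p under 0.05 with a change of 1.3-fold or more. TMM factors were 1.02, 0.914 and 1.20 for vehicle and 0.947, 0.982 and 0.959 for BML-260. TPM ratios were tested with exact permutation tests on log2 values. DESeq2 1.42.0, limma 3.58.1, other scalings and filters, the replicate block and omission of each library served as alternatives, and the fits were tested on simulated data. P-values set the difference between the groups against the variation between these 6 mice. Vehicle replicate 3 stood apart and was kept in the main comparison.

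The members and the other pathway lists were chosen with earlier results of these data known. Values in every library are given for Psmd11, the catalytic subunits, Psmd14, the ubiquitin receptors, the 6 members with the smallest p, the largest estimate in each direction and the highest and lowest mean TPM. Of the other pathway genes, those called and the extreme estimates of each list are named. Psma1, Psma3, Psma4, Psmc2, Psmc5, Psmd13, Nfe2l1, Ddi2, Ngly1, Pomp, Psme1 and Psme4 were added after their values were seen. Promoter windows are from RefSeq, and no protein sequences were used.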

Additional observations from a re-analysis of the deposited data

How the results depend on the processing

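Of 19 alternatives to the test, 1 gave any subunit called at the 1.3-fold threshold and 0 gave one at an adjusted p under 0.05, and in each of them the median log2 fold change of the subunits was below that of all genes. Leaving out each library in turn gave 0 to 4 subunits called and 3 to 16 without overlap. Both were highest without vehicle replicate 2, when 7.22% of all genes were called and 23.8% had groups without overlap. Without vehicle replicate 1 the groups did not overlap for 8 subunits, 5 of them lower with BML-260, against 32.5% of all genes. The omissions with 3 or 4 such subunits had 18.0% to 23.0% of all genes without overlap. The same omissions gave 0 to 4 other pathway genes called. The number was highest without vehicle replicate 1, when 13.3% of all genes were called, and lowest without BML-260 replicate 2, when 3.0% were. The group medians ran from -0.15 to -0.048 for the alpha ring, -0.16 to -0.096 for the ATPases and -0.10 to -0.049 for the lid. Over the same omissions the log2 fold change ran from -0.14 to 0.088 for Psmb5, -0.014 to 0.18 for Psmb6, -0.043 to 0.15 for Psmb7, -0.057 to 0.028 for Psmd14, -0.12 to 0.070 for Adrm1 and -0.090 to 0.086 for Psmd3. The estimate of Adrm1 was above 0 with RLE scaling (0.0015), DESeq2 (0.0012), limma voom with sample weights (0.082) and the replicate block (0.0041). With the replicate block 0 subunits and 1 other pathway gene were called, when 6.53% of all genes were called. Without the block 2 other pathway genes were called, when 5.75% of all genes were. Same-numbered libraries correlated at 0.28, 0.077 and 0.16 in their deviations from the group means, and differently numbered ones at -0.20 to -0.016. Each library thus correlated best with its own number. The sample titles give a number but no pairing, so the main test did not take the numbers as pairs. Whether same-numbered mice shared a handling step was not tested. Limma voom also called 1 other pathway gene, when 5.5% of all genes were called.

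On log2(TPM + 1) and log2(TPM + 0.1) the subunit median was -0.231 and -0.233 (all genes -0.098 and -0.14). Each gave 0 subunits without overlap, against 9.61% of all genes. Each also gave 1 other pathway gene called, when 3.22% and 4.37% of all genes were called. Psmb6 was at -0.0944 and -0.0948 and Psmb7 at -0.1012 and -0.1015. Of 4 alternatives chosen after seeing the data, library totals only gave a subunit median of -0.21 (all genes -0.12), Psmb6 at -0.0644 and Psmb7 at -0.0644. TPM scaled by the median ratio gave 1 other pathway gene called, when 4.03% of all genes were called, and Adrm1 at 0.0089. Log2(TPM + 1) without vehicle replicate 3 gave 0 subunits without overlap (against 15.0% of all genes) and 0 other pathway genes called (against 2.99%). There Psmb7 was at -0.021, Adrm1 at 0.11 and Psmd3 at 0.00070. The last was the omission of that library from the immunoproteasome ratios, which kept their sign. The cause was not tested. With 3 mice per group, the intervals of most subunits reached past a 1.3-fold change.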

Other observations

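Psma3 was the subunit whose TPM and counts disagreed most with each other across the libraries. The TPM of a gene divided by its TMM-normalized CPM depends on the transcript length used for the TPM, and was expressed relative to the median of the 32 subunits in each library. For Psma3 this ratio was 0.583, 0.992 and 0.779 in the vehicle libraries and 0.583, 0.776 and 0.997 in the BML-260 libraries, a 1.71-fold range. Libraries with nearly the same value came from different groups. For the other 31 subunits the range was at most 1.15-fold, which was that of Psmd11. As a result the order of the libraries for Psma3 depends on the scale. BML-260 replicate 1 had 91.3 TPM and BML-260 replicate 3 had 168 TPM, while their CPM were 144.6 and 135.0.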
